A study of Mus musculus with 10 samples.

Results

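The TNF receptor superfamily is a set of surface receptors that sustain, amplify or end T cell responses. Trimeric ligands on neighbouring cells cluster the receptors, and the receptor tails then recruit TRAF adaptors that switch on NF-kappaB. CD30, OX40, 4-1BB, GITR, CD27, TNFR2 and HVEM act in this way as costimulators, whereas TNFR1, DR3 and FAS also carry a death domain, through which adaptors can reach caspase-8. The 10 receptor genes known from T cells (Tnfrsf8, Tnfrsf4, Tnfrsf9, Tnfrsf18, Tnfrsf1a, Tnfrsf1b, Tnfrsf25, Tnfrsf14, Cd27 and Fas) were chosen by symbol, and all 10 were present among the 23393 named genes of the expression table and passed the filter on low values.

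RNA had been measured in Th22 cells, CD4+ T cells that make IL-22, from C57BL/6 mice aged 10 weeks. The control group (WT, 5 libraries) had the genotype Riok2+/+ Vav1cre/+ Il22tdtomato/+, and the other group (Riok2hKO, 5 libraries) had Riok2f/+ Vav1cre/+ Il22tdtomato/+. Both groups thus carried the Vav1-driven Cre recombinase, which acts across blood lineages and not in T cells alone, and a tdTomato reporter at Il22. They differed in a floxed copy of Riok2, an atypical kinase of small ribosomal subunit maturation. Naive splenic CD4+ T cells were stimulated with antibodies to CD3e and CD28 in the presence of IL-6 (30 ng/mL), IL-23 and IL-1b (20 ng/mL each), the aryl hydrocarbon receptor ligand FICZ (400 nM) and antibodies to IL-4 and IFN-g, and 5000 tdTomato-positive CD4+ cells were sorted for each library. The comparison addresses how the loss of a Riok2 copy altered the RNA of these cells. Each value is in TPM, a share of transcripts that is normalised for transcript length, so levels can be set beside each other between genes.

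Riok2 measured 28.3 ± 1.57 TPM in WT and 13.7 ± 1.71 in Riok2hKO (SD, n = 5 each), which was 48.3% of WT. All libraries had between 13948 and 14695 genes above 0 TPM. No pair of libraries fell below a Pearson's r of 0.9829 across genes (WT pairs reached 0.9905 or more, Riok2hKO pairs 0.9944 or more). The summed level of 9 T cell markers was 2633 to 2666 TPM in WT and 2603 to 2646 in Riok2hKO. Within that sum, Cd2 (log2 fold change 0.38) and Cd28 (0.31) rose, Cd3d (-0.20), Cd3g (-0.21) and Lck (-0.13) fell, and 4, among them Cd3e and Cd4, did not pass. The part of these markers in the receptor changes was not tested. B cell markers summed to at most 3.15 TPM, dendritic cell markers to at most 1.77 and NK cell markers to at most 1.68, with the NK receptor Klra8 at 0 in every library. The read depth behind these values is unknown.

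Of the 10 receptor genes, Tnfrsf8 and Tnfrsf25 rose, Tnfrsf4 and Cd27 fell, and 6 did not pass the test. The test was limma on log2(TPM + 1) over 10332 genes, with Benjamini-Hochberg adjustment and a threshold of 0.05. In all, 17.1% of tested genes passed it, 9.58% as higher and 7.55% as lower in Riok2hKO. The WT and Riok2hKO ranges did not overlap for the same 4 receptor genes, against 14.6% of tested genes. The median log2 fold change of the 10 genes was 0.05 and that of all tested genes -0.01, while the median absolute log2 fold change was 0.16 against 0.09. The 7 costimulatory genes without a death domain held 1 that rose and 2 that fell, and the 3 death domain receptors held 1 that rose. The cells were measured in bulk, so a smaller number of cells with a transcript and less of it per cell cannot be told apart.

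**Figure D1:**
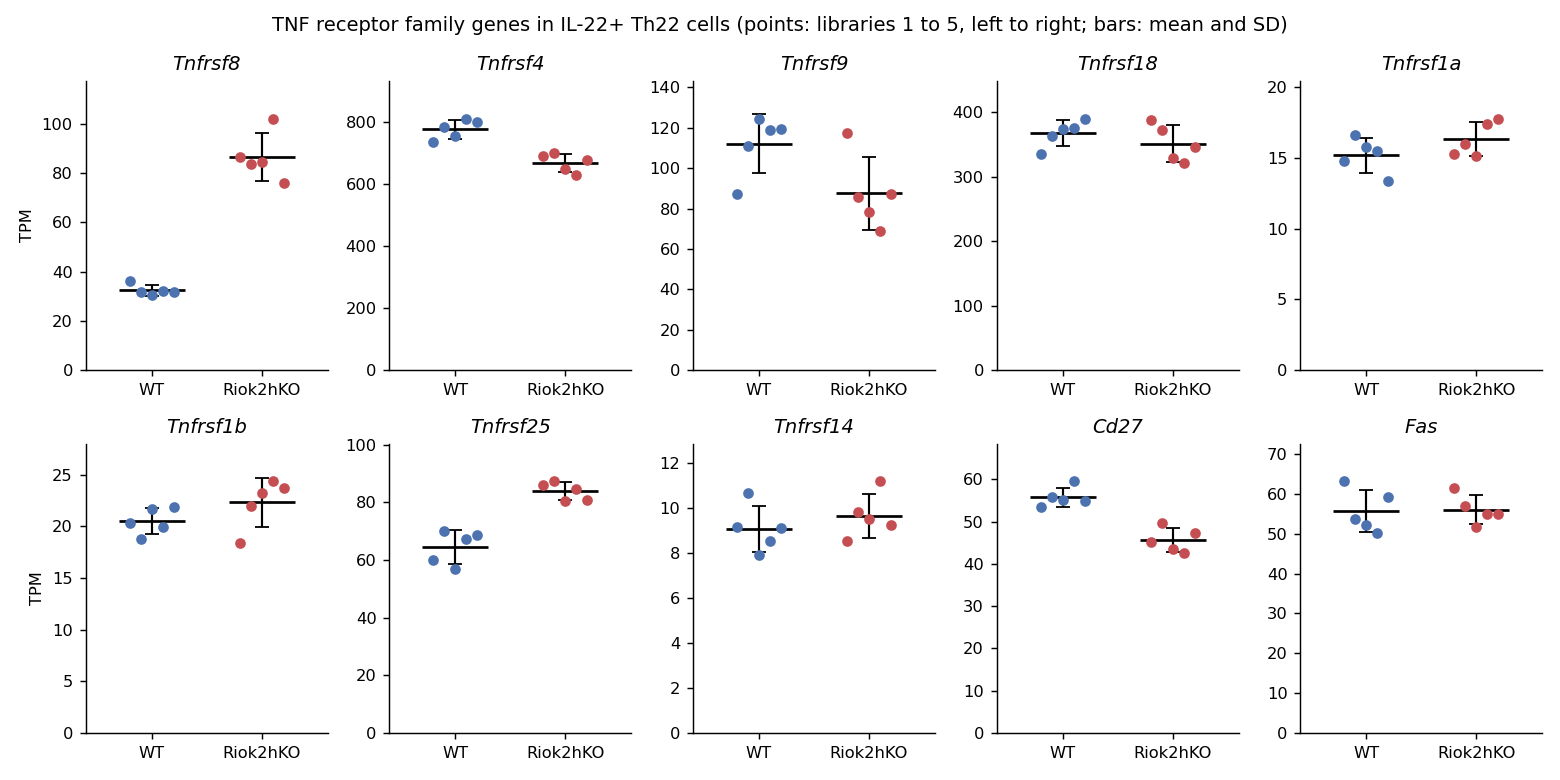
TPM of the 10 receptor genes in each library (linear axes from 0). Points are libraries 1 to 5 of WT (blue) and Riok2hKO (red), with the mean and SD. The groups do not overlap for Tnfrsf8, Tnfrsf4, Tnfrsf25 and Cd27, and Tnfrsf8 is the only panel in which the Riok2hKO mean is over 1.5 times the WT mean.

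Tnfrsf8 encodes CD30, a receptor of activated lymphocytes. It measured 36.2, 31.6, 30.6, 32.3 and 31.6 TPM in WT replicates 1 to 5, and 86.7, 83.7, 84.4, 102 and 75.8 TPM in Riok2hKO replicates 1 to 5. The lowest Riok2hKO library lay far above the highest WT library, and the WT values were tightly grouped apart from a slightly high replicate 1. The ratio of mean TPM was 2.67, and the log2 fold change was 1.38 with a standard error of 0.07 (95% interval 1.23 to 1.54, limma adjusted p = 5.78e-07). Tnfrsf8 had the smallest p of all 10332 tested genes, but by a narrow margin. Smox, described below, had a limma p of 1.69e-10 against 1.37e-10 for Tnfrsf8, and the same adjusted p. By size, 22 of the 1770 genes that passed, Tnfrsf8 among them, changed by at least as much on the log2 scale. Genes that passed had a median absolute log2 fold change of 0.28, and 53 of them reached 1.

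Tnfrsf25 encodes DR3, the death domain receptor for TL1A, which costimulates effector T cells. Its WT values were 59.9, 70.2, 56.8, 67.2 and 68.6 TPM, and its Riok2hKO values 86.1, 87.3, 80.5, 84.7 and 81.0 TPM. All Riok2hKO libraries were above all WT libraries, and the Riok2hKO values varied less (SD 3.04 against 5.85). The log2 fold change was 0.38 (standard error 0.06, limma adjusted p = 0.00118), a 1.30-fold ratio of means.

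Tnfrsf4 encodes OX40, a costimulator of CD4+ T cell survival after activation, and was the most abundant of the receptors in both groups. WT libraries measured 734, 782, 753, 809 and 798 TPM, and Riok2hKO libraries 689, 699, 646, 627 and 676 TPM. The highest Riok2hKO value stayed below the lowest WT value. The fall was 0.22 on the log2 scale (log2 fold change -0.22, standard error 0.04, limma adjusted p = 0.0019), so the Riok2hKO mean was 0.86 of the WT mean.

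Cd27 encodes a receptor for CD70 that naive T cells already carry. It measured 53.6, 55.8, 55.1, 59.5 and 54.9 TPM in WT and 45.3, 49.6, 43.6, 42.5 and 47.3 TPM in Riok2hKO. Again no library of a group reached the range of the other. The log2 fold change was -0.28 with a standard error of 0.05 (limma adjusted p = 0.00198). With WT replicate 1 left out, where 17.0% of tested genes passed, all 4 changed genes passed again, with log2 fold changes of 1.42 for Tnfrsf8, 0.35 for Tnfrsf25, -0.24 for Tnfrsf4 and -0.30 for Cd27.

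The promoters of these 4 genes are shown because they can be set beside the direction of change. Each is the 300 bases from 250 before to 50 after a RefSeq transcription start (GRCm38.p6, the mm10 assembly), written 5′ to 3′ on the gene's strand, with capitals marking any of 6 motifs searched on both strands: the TATA box TATAAA, the GC box GGGCGG, the AP-1 site TGANTCA, the STAT element TTCNNNGAA, the aryl hydrocarbon receptor core GCGTG and the NF-kappaB consensus.
Tnfrsf8 (rose; chr4:145315115-145315414, minus strand): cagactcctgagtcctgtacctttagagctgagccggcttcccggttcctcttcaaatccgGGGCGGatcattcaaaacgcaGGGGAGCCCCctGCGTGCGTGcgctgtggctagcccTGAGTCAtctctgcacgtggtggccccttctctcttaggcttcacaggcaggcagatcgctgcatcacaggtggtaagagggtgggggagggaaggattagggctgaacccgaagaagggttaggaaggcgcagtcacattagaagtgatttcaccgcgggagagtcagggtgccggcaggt
Tnfrsf25 (rose; chr4:152115684-152115983, plus strand): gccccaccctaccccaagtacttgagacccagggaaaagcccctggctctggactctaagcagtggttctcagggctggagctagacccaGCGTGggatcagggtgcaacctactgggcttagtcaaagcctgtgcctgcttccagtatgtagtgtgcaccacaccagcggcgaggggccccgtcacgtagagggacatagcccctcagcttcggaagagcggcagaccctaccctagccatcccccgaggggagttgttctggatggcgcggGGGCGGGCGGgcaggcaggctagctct
Tnfrsf4 (fell; chr4:156013445-156013744, plus strand): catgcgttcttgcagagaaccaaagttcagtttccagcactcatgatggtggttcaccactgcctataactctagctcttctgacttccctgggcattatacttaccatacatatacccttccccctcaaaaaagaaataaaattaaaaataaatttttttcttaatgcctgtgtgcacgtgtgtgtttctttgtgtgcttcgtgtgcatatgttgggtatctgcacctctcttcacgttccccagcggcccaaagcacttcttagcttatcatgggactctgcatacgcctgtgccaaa
Cd27 (fell; chr6:125236978-125237277, minus strand): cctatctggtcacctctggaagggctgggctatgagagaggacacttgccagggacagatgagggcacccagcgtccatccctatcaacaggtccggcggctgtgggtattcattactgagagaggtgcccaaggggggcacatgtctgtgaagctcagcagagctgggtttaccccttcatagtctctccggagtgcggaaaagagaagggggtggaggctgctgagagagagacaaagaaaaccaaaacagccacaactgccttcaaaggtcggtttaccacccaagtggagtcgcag

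In the Tnfrsf8 window, counted from the start site with the first base before it as -1, the GC box began at -189, the NF-kappaB consensus at -168, a pair of overlapping aryl hydrocarbon receptor cores at -156 and -152, and the AP-1 site at -132. The Tnfrsf25 window held an aryl hydrocarbon receptor core at -160 and overlapping GC boxes at 24 and 28. A further RefSeq start of Tnfrsf25 had cores at -239 and 3 and a STAT element at -16. The Tnfrsf4 and Cd27 windows held none of the 6 motifs. The starts used for Tnfrsf25, Tnfrsf4 and Cd27 lie inside the coordinates of these genes. No window was taken around their outermost ends, so motifs there may have been missed. How common these letters are differs by motif. Of 32851 RefSeq promoter windows, 35.7% held the GC box, 32.4% the aryl hydrocarbon receptor core and 13.6% the TATA box. The STAT element was in 8.30%, the AP-1 site in 7.81% and the NF-kappaB consensus in 4.50%. Among the genes that did not pass, the same motifs occurred: aryl hydrocarbon receptor cores in Tnfrsf1b, Tnfrsf14 and Fas, GC boxes in Tnfrsf1b, Tnfrsf9 and Fas, STAT elements in Tnfrsf1b, Tnfrsf9, Tnfrsf18, Tnfrsf1a and Fas, AP-1 sites in Tnfrsf9 and Fas, and the NF-kappaB consensus in Tnfrsf9. A match describes the letters and not a bound site, and no binding was measured here.

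Tnfrsf9, which encodes 4-1BB, a costimulator induced by activation, varied widely between libraries of a group. WT libraries measured 87.4, 111, 124, 119 and 119 TPM, and Riok2hKO libraries 117, 85.9, 78.5, 69.1 and 87.4 TPM. WT replicate 1 was low and Riok2hKO replicate 1 was high, each lying within the range of the opposite group, so the groups overlapped. The log2 fold change of -0.36 (standard error 0.13) did not pass (limma adjusted p = 0.0693). It passed under 3 of 22 alternatives. The first was without WT replicate 1 (-0.45, limma adjusted p = 0.0149). The second was without Riok2hKO replicate 1 (-0.47, limma adjusted p = 0.0114), where 14.3% of all tested genes passed. The third had libraries weighted by their quality (-0.41, limma adjusted p = 0.0267), where 17.9% passed. Under the other 19 it did not pass, and the limma adjusted p-values ranged from 0.0114 to 0.157 over all alternatives.

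Tnfrsf18 encodes GITR, which is high on regulatory and activated T cells, and ranged from 335 to 389.8 TPM in WT and from 321 to 389 in Riok2hKO. Its log2 fold change was -0.07 (95% interval -0.19 to 0.05, limma adjusted p = 0.442). Its lowest WT library was again replicate 1 and its highest Riok2hKO library replicate 1. Tnfrsf1b, the gene of the costimulatory TNF receptor TNFR2, ranged from 18.8 to 21.9 TPM in WT and from 18.4 to 24.4 TPM over the Riok2hKO libraries (log2 fold change 0.11, 95% interval -0.05 to 0.27, limma adjusted p = 0.331). Here Riok2hKO replicate 1 was the low library, and the other 4 Riok2hKO libraries were above every WT library. Tnfrsf14, which encodes HVEM, the receptor of LIGHT and BTLA, was the least abundant, at 7.92 to 10.7 TPM in WT and 8.52 to 11.2 TPM in the Riok2hKO libraries (log2 fold change 0.08, 95% interval -0.10 to 0.26, limma adjusted p = 0.551).

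The remaining death domain receptors did not pass. Tnfrsf1a, which encodes TNFR1, spanned 13.4 to 16.6 TPM in WT and 15.2 to 17.8 TPM in the Riok2hKO group (log2 fold change 0.10, 95% interval -0.05 to 0.24, limma adjusted p = 0.354). Fas, the receptor by which activated T cells can be removed, spanned 50.1 to 63.2 TPM in WT and 51.7 to 61.5 TPM across Riok2hKO (log2 fold change 0.01, 95% interval -0.13 to 0.15, limma adjusted p = 0.93).

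In WT the receptors ranked by mean TPM as Tnfrsf4, Tnfrsf18, Tnfrsf9, Tnfrsf25, Cd27, Fas, Tnfrsf8, Tnfrsf1b, Tnfrsf1a and Tnfrsf14. Tnfrsf25, Cd27 and Fas overlapped with their neighbours in that order, and every other pair of neighbours had separate ranges. In Riok2hKO the order was Tnfrsf4, Tnfrsf18, Tnfrsf9, Tnfrsf8, Tnfrsf25, Fas, Cd27, Tnfrsf1b, Tnfrsf1a and Tnfrsf14, with overlap among Tnfrsf9, Tnfrsf8 and Tnfrsf25. Tnfrsf8 was seventh in every WT library and between rank 3 and rank 5 in the Riok2hKO libraries.

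**Figure D2:**
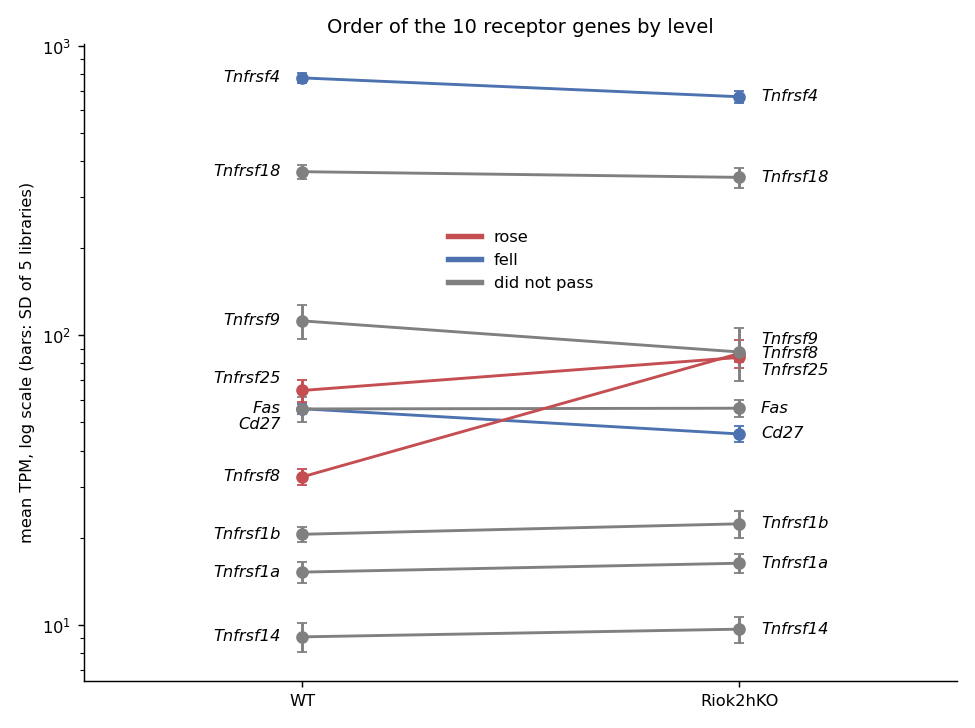
Mean TPM of the 10 receptor genes on a log axis in WT (left) and Riok2hKO (right); bars are the SD of 5 libraries, and colours give the limma call. The line of Tnfrsf8 crosses those of Fas, Cd27 and Tnfrsf25 and ends between Tnfrsf9 and Tnfrsf25, close to both.

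The receptors summed to 1508 ± 61.3 TPM in WT and 1427 ± 71.9 TPM in Riok2hKO (SD, n = 5 each), with overlapping ranges of 1413 to 1565 and 1354 to 1517. Within that sum, Tnfrsf8 made up 2.16% ± 0.23 in WT and 6.09% ± 0.87 in Riok2hKO. The share of Tnfrsf4 was 51.4% ± 0.64 in WT and 46.8% ± 0.92 in Riok2hKO. Set against OX40, CD30 transcripts were thus 4.20% of the Tnfrsf4 level in WT and 13.0% in Riok2hKO. The ratio of Tnfrsf25 to Cd27 was 1.03 to 1.26 over WT libraries and 1.71 to 1.99 over Riok2hKO libraries. These shares restate the changes of single genes and were not tested.

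The ligands and binding partners of the receptors comprised 12 genes, of which 10 could be tested. Of these, 1 rose, 2 fell and 7 did not pass, with a median log2 fold change of 0.05. Over all tested genes, 9.58% rose and 7.55% fell. Lta, which encodes lymphotoxin alpha, a ligand of TNFR1, TNFR2 and HVEM, measured 148, 149.8, 157, 145 and 162 TPM in WT and 170.5, 172, 164, 169 and 172 TPM in the Riok2hKO libraries (log2 fold change 0.16, limma adjusted p = 0.00844). All Riok2hKO libraries lay above WT, by a small margin. Fasl, which encodes the ligand of FAS, measured 9.56, 10.1, 9.13, 11.2 and 11.3 TPM in WT and 6.62, 6.68, 4.54, 5.34 and 6.32 TPM in Riok2hKO. The groups did not overlap, and the log2 fold change was -0.71 (standard error 0.10, limma adjusted p = 0.000618), whereas the receptor Fas did not pass. Cd160, which encodes a binding partner of HVEM, was low, at 2.52 to 3.72 TPM in WT and 1.66 to 3.14 TPM over Riok2hKO libraries (log2 fold change -0.45, limma adjusted p = 0.0359). The Cd160 call was lost under 10 of 21 alternatives, with adjusted p-values of 0.0093 to 0.089 over all of them, among them leaving out WT replicates 2, 3, 4 or 5 or Riok2hKO replicates 2, 3 or 4.

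The ligand genes of CD30, OX40 and CD27 did not pass. Tnfsf8, which encodes the CD30 ligand, averaged 62.6 ± 8.24 TPM in WT against 66.7 ± 3.74 in Riok2hKO, a log2 fold change of 0.10 (95% interval -0.08 to 0.27, limma adjusted p = 0.434). Tnfsf4, the OX40 ligand gene, measured 13.8 ± 1.29 and 12.8 ± 2.83 TPM (log2 fold change -0.12, limma adjusted p = 0.583). Cd70, the gene of the CD27 ligand, measured 11.5 ± 1.86 and 8.40 ± 2.64 TPM (log2 fold change -0.44, limma adjusted p = 0.109), and it passed under 3 of 22 alternatives, among them without WT replicate 1 (limma adjusted p = 0.0494) and without Riok2hKO replicate 2 (0.037), within a range of 0.033 to 0.218 over all alternatives. Tnf, the ligand gene of TNFR1 and TNFR2, had a log2 fold change of 0.14 (limma adjusted p = 0.208) and passed only without Riok2hKO replicate 1 (limma adjusted p = 0.0292). Tnfsf9, the 4-1BB ligand gene, Tnfsf14, which encodes LIGHT, and Btla had log2 fold changes of 0.09, 0.01 and 0.08 and did not pass. Transcripts of the GITR ligand (Tnfsf18) and of TL1A (Tnfsf15), the ligand of DR3, did not reach the filter, with at most 0.31 and 0.32 TPM in any library.

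**Figure D3:**
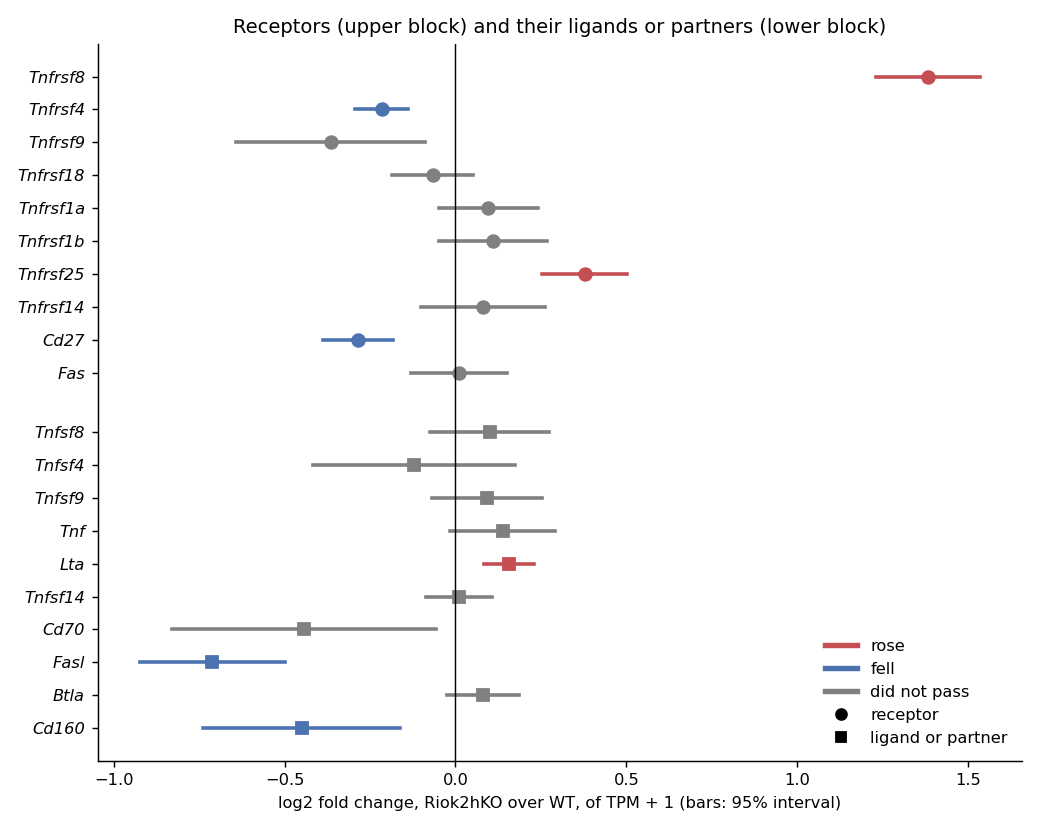
Log2 fold changes of TPM + 1, Riok2hKO over WT, with 95% intervals, for the 10 receptors (circles) and the 10 tested ligands or partners (squares), coloured by the limma call. Tnfrsf8 stands at 1.38, and Fasl, at -0.71, is the lowest of the ligands.

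Beyond the 10 receptors, 18 further TNF receptor superfamily genes were listed and 9 could be tested. Of these, 0 rose by limma, 1 fell and 8 did not pass, with a median log2 fold change of -0.02. The shares over all tested genes were 9.58% that rose and 7.55% that fell. Tnfrsf13c, which encodes the BAFF receptor known from B cells, fell at a level near the filter, from 1.84 ± 0.57 to 0.88 ± 0.31 TPM (log2 fold change -0.58, limma adjusted p = 0.0226), and lost its call without WT replicate 5 (limma adjusted p = 0.0511) or Riok2hKO replicate 4 (0.0521), within a range of 0.0116 to 0.0521. Summed B cell markers were 1.82 to 3.15 TPM in WT and 1.36 to 2.41 in Riok2hKO, with 6 of 7 below 1 TPM in every library and none at 0 in all of them, and their part in this result was not tested. Tnfrsf26 had a log2 fold change of 0.16 (limma adjusted p = 0.108), and passed without WT replicate 1 (0.0112). Relt (-0.10, limma adjusted p = 0.29) and Tnfrsf21, which encodes the death receptor DR6 (-0.13, limma adjusted p = 0.454), did not pass.

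The list of TRAF adaptors, ubiquitin ligases and deubiquitinases that carry the receptor signal or end it held 27 genes. Of these, 7 rose, 2 fell and 18 did not pass (median log2 fold change 0.07). For comparison, 9.58% of all tested genes rose and 7.55% fell, and the difference from these shares was not tested. Traf6, which encodes a ubiquitin ligase, went from 12.5 ± 0.42 to 16.2 ± 0.87 TPM (log2 fold change 0.35, limma adjusted p = 0.000804). Tnfaip3, which encodes the NF-kappaB inhibitor A20, went from 22.1 ± 1.96 to 28.3 ± 1.54 TPM (0.34, limma adjusted p = 0.00364), and its partner gene Tnip1 from 45.5 ± 4.50 to 56.5 ± 2.93 TPM (0.31, limma adjusted p = 0.00783). The rising members thus included negative regulators besides signal carriers such as Tab2 (0.26, limma adjusted p = 0.0127). Cyld, a deubiquitinase gene, also passed (0.20, limma adjusted p = 0.0476), but lost its call under 15 of 22 alternatives (adjusted p-values 0.026 to 0.183 over all of them), among them without any of WT replicates 1 to 4 or Riok2hKO replicates 2 to 5. Traf4 (0.63, limma adjusted p = 0.013) and Birc3, which encodes the ubiquitin ligase cIAP2 (0.15, limma adjusted p = 0.0157), also rose. Traf7 (-0.13, limma adjusted p = 0.0231) and Rbck1, which encodes a subunit of the linear ubiquitin ligase complex (-0.09, limma adjusted p = 0.0326), fell. Traf7 lost its call under 4 alternatives (adjusted p-values 0.0114 to 0.0579 over all), among them without WT replicate 4 or Riok2hKO replicates 1 or 3, and Rbck1 under 11 (0.0186 to 0.0857), among them without WT replicates 1, 4 or 5 or Riok2hKO replicates 1, 2, 3 or 4. Traf1, which binds several costimulatory receptors of the family, had a log2 fold change of 0.09 (limma adjusted p = 0.0538), and Traf2 one of -0.10 (limma adjusted p = 0.0898).

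Of 18 genes of death domain signalling, 3 rose, 3 fell and 12 did not pass (median log2 fold change 0.03). Among all tested genes, 9.58% rose and 7.55% fell, and the difference from these shares was not tested. Casp6, which encodes an effector caspase, went from 42.9 ± 2.32 to 84.8 ± 9.70 TPM (log2 fold change 0.96, limma adjusted p = 6.96e-06). Faf1, which encodes a FAS-associated factor, went from 5.99 ± 1.13 to 10.8 ± 1.34 TPM (0.77, limma adjusted p = 0.00118), and Casp8, the initiator caspase gene, from 64.1 ± 2.92 to 76.8 ± 2.78 TPM (0.26, limma adjusted p = 0.00134). Siva1, whose product binds the CD27 tail, fell (-0.16, limma adjusted p = 0.00531), as did Bid (-0.18, limma adjusted p = 0.0316), which encodes a substrate of caspase-8. The call of Bid was lost under 8 of 22 alternatives (adjusted p-values 0.00611 to 0.0748 over all), among them without WT replicates 2, 4 or 5 or Riok2hKO replicates 1, 3 or 4.

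Of 14 NF-kappaB subunits, kinases and inhibitors, 3 rose, 3 fell and 8 did not pass (median log2 fold change -0.03). Across all tested genes, 9.58% rose and 7.55% fell, and the difference from these shares was not tested. The inhibitor gene Nfkbia, itself a known target of NF-kappaB, went from 635 ± 33.5 to 734 ± 14.6 TPM (log2 fold change 0.21, limma adjusted p = 0.00169), and Bcl3, an atypical inhibitor family gene, from 16.3 ± 1.09 to 21.3 ± 1.61 TPM (0.36, limma adjusted p = 0.00249). Chuk, which encodes the kinase IKK alpha, rose by 0.32 (limma adjusted p = 0.0381). The subunit genes Nfkb1 (-0.15, limma adjusted p = 0.0178) and Nfkb2 (-0.17, limma adjusted p = 0.0231) and the inhibitor gene Nfkbib (-0.12, limma adjusted p = 0.0331) fell. Rela (0.28, limma adjusted p = 0.103), Rel (-0.11, limma adjusted p = 0.232) and Relb (-0.09, limma adjusted p = 0.229), also subunit genes, did not pass. The groups did not overlap for Rela, at 47.8 to 77.7 TPM in WT, where replicate 1 was lowest, and 80.0 to 85.9 in Riok2hKO. Nfkb2 did not pass under 6 alternatives, its adjusted p-values ranging from 0.000218 to 0.0551, among them leaving out WT replicates 2 or 3 or Riok2hKO replicates 3 or 4. Nfkbib and Chuk each lost their call under 11 of 22 alternatives, with adjusted p-values of 0.0146 to 0.0723 and 0.00953 to 0.0928. For Nfkbib these included leaving out WT replicates 2 to 5 or Riok2hKO replicates 2 or 4, and for Chuk WT replicates 1, 2, 3 or 5 or Riok2hKO replicates 3 to 5.

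**Figure D4:**
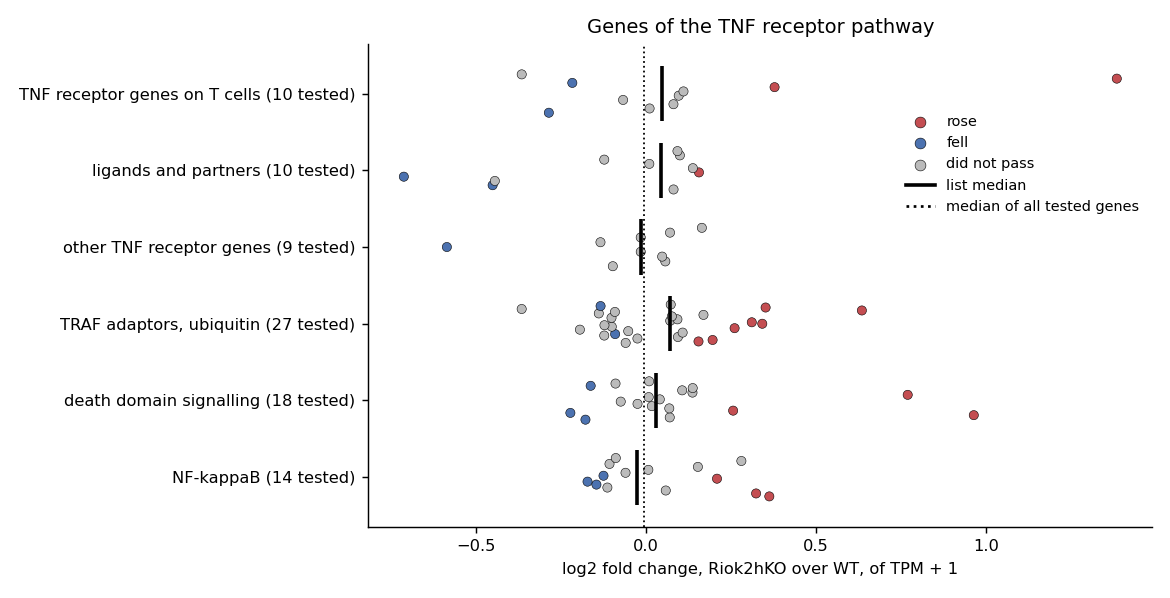
Log2 fold changes of TPM + 1, Riok2hKO over WT, for the tested genes of each list; a point is a gene, coloured by its limma call, the solid bar is the median of the list and the dotted line the median of all tested genes (-0.01). The list medians lie between -0.03 and 0.07, and Tnfrsf8 has the highest value of any gene shown.

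The 5 genes whose profile over the 10 libraries lay nearest to that of Tnfrsf8 were sought among the 7416 named genes averaging 5 TPM or more, by the root mean square difference of log2 values centred on WT. Timp1, which encodes an inhibitor of metalloproteinases, was nearest (difference 0.14), followed by Smox, which encodes spermine oxidase (0.18), the cytokine gene Lif (0.21), Il12rb2, which encodes a chain of the IL-12 receptor (0.21), and Cysltr1, which encodes a leukotriene receptor (0.23). Timp1 measured 185, 188, 159.6, 152 and 168 TPM in WT and 435, 367, 408, 512 and 329.9 TPM in Riok2hKO. Timp1, Smox and Cysltr1 were highest in Riok2hKO replicate 4, where Tnfrsf8 was also highest, whereas Lif and Il12rb2 were highest in Riok2hKO replicate 1. The libraries share genotype, so genes that moved by a like amount are near each other by this measure.

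**Figure D5:**
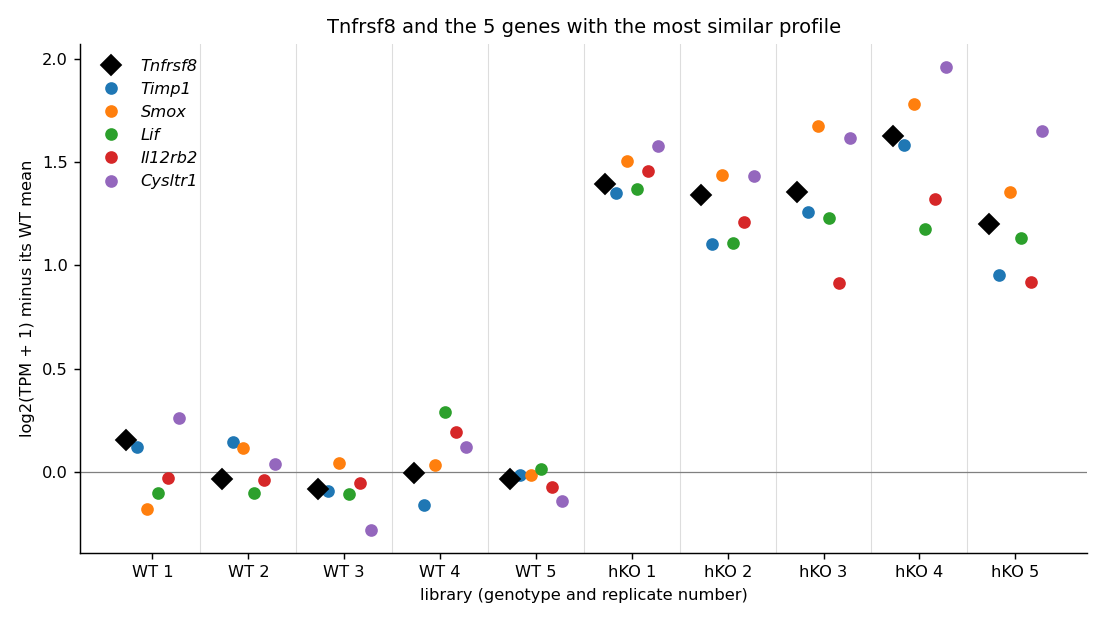
Log2(TPM + 1) minus the WT mean of each gene, by library, for Tnfrsf8 (black diamonds) and the 5 genes with the nearest profile (circles); hKO stands for Riok2hKO. All 6 genes lie near 0 in WT and near or above 1 in Riok2hKO, with Cysltr1 or Smox the highest in each Riok2hKO library.

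The receptor genes are clustered in the mouse genome: 7 lie on chromosome 4, 2 on chromosome 6 (Cd27 and Tnfrsf1a) and Fas lies on chromosome 19. Tnfrsf8 (chromosome 4, 145267132 to 145315164) and Tnfrsf1b (145212368 to 145246870) are 20.3 kb apart on the minus strand, and the first rose while the second did not pass. Tnfrsf4 (156013595 to 156016613) and Tnfrsf18 (156026322 to 156028894) are 9.7 kb apart on the plus strand, and the first fell while the second did not pass. The differences between the members of these pairs were not tested. Of the 15 tested genes outside the family that lay nearest to a receptor gene, 2 rose, 3 fell and 10 did not pass. Over all tested genes, 9.58% rose and 7.55% fell, and the difference from these shares was not tested. Vps13d next to Tnfrsf1b, Gm13212 beyond Tnfrsf8, Vamp3 near Tnfrsf9, Pank4 and Prdm16 around Tnfrsf14, 9430015G10Rik beyond Tnfrsf18, Tapbpl beside Cd27, 4930417O13Rik between Cd27 and Tnfrsf1a and Sdf4, which overlaps the start of Tnfrsf4 on the same strand, did not pass.

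Tnfrsf25 (152115528 to 152120119, plus strand) lies between Plekhg5, which ends 124 bases before it and did not pass (log2 fold change 0.04, limma adjusted p = 0.813), and Espn, which encodes the actin-bundling protein espin and lies 212 bases beyond it on the opposite strand. Espn measured 8.27, 10.7, 9.49, 12.8 and 10.4 TPM in WT and 27.1, 22.2, 25.1, 21.8 and 21.8 TPM in Riok2hKO. Its groups did not overlap, and its rise (log2 fold change 1.12, standard error 0.10, limma adjusted p = 2.75e-05) was of greater size than that of Tnfrsf25. The libraries do not mark strand, and reads at the adjoining ends of these genes could not be told apart by strand. Cd9, 97.8 kb from Tnfrsf1a, fell (log2 fold change -0.43, limma adjusted p = 0.003), as did Stambpl1, 50.3 kb from Fas (-0.21, limma adjusted p = 0.00896). Park7, 10.2 kb from Tnfrsf9, rose (0.09, limma adjusted p = 0.0382), and Lipa, 165 kb from Fas, fell (-0.17, limma adjusted p = 0.04), and each of these calls was lost under 11 of 22 alternatives, with adjusted p-values of 0.0219 to 0.114 for Park7 and 0.0248 to 0.0952 for Lipa.

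Since GITR, OX40, TNFR2 and 4-1BB are high on regulatory T cells, markers of these cells were read beside the receptors. The 5 markers summed to 247 to 265 TPM in WT and 347 to 409 TPM in Riok2hKO. The sum was carried by Il2ra, which activated T cells also express and which rose (log2 fold change 0.74), whereas Ctla4 (0.15, limma adjusted p = 0.111) and Ikzf2 (-0.02, limma adjusted p = 0.921) did not pass. The defining gene Foxp3 lay at 0.57 to 1.02 TPM in WT and 0.74 to 1.26 TPM in Riok2hKO, and no marker was at 0 in all libraries. The 2 CD8 T cell markers summed to 17.5 to 19.6 TPM in WT and 11.5 to 14.8 TPM in Riok2hKO, nearly all of it Cd8b1, which fell (log2 fold change -0.48, limma adjusted p = 0.00127), while Cd8a was at 0.15 to 0.48 TPM in WT and 0 to 0.27 TPM in Riok2hKO. Of 9 myeloid markers, 7 were below 1 TPM in every library, and their sum was 10.8 to 12.4 TPM in WT and 9.64 to 12.6 in Riok2hKO. The part of the regulatory and CD8 T cell markers in the receptor changes was not tested.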

How the data were processed

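Per the labels' protocols, SMART-seq2 was used, which amplifies full-length cDNA and keeps no strand, with 10 cycles of amplification and 38-nucleotide paired reads; the authors aligned reads with Bowtie and estimated TPM with RSEM (version 1.2.8 and mm10 per the submitters' processing notes; Bowtie version: not given in the sources used here). The deposited TPM values give each transcript's share after division by its length, so a rise in some genes lowers the share of others, and the depth is unknown.

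From these values, log2(TPM + 1) was computed, which understates the change of low genes. The 10332 genes that reached 1 TPM in 5 or more of the 10 libraries were tested with limma 3.58.1 (R 4.3.3; lmFit and eBayes with a variance trend) for genotype, with Benjamini-Hochberg adjustment. "Rose" and "fell" mean an adjusted p under 0.05. Rows whose symbol had become a date (27 of 23420; 0.107% to 0.114% of TPM) were left out. No column was left unused. The test was also run on simulated data in which each gene varied independently. That check does not cover libraries that deviate over many genes together. Whether the libraries of a group stem from different mice or cultures is not stated in the labels, and p-values therefore reflect just how far these libraries vary, which may be technical.

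The receptors, gene lists and tests were chosen with earlier results of these data known. Genes named were Riok2, the receptors, every tested ligand, up to 4 genes per other list with the smallest p, the 5 genes nearest in profile to a receptor that passed with a log2 fold change of at least 0.5 in size, and the nearest tested genes on each side of each receptor. Traf1, Traf2, Traf4, Traf7, Birc3, Cyld, Rbck1, Bid, Chuk, Nfkbib, Rela, Rel, Relb and the marker genes were chosen after their values were seen. The values of 1 gene counted in the lists are not reported here. Coordinates and promoters are from RefSeq (GRCm38.p6), and all 10 receptors had a promoter there. The 22 alternatives covered the pseudocount, the filter, scaling, array weights, the variance model, a covariate for detected genes, the replicate block, each library left out, and, chosen after seeing the data, a correction for transcript GC content and length (values for 94.1% of tested genes). Plots used matplotlib 3.10.9 (Python 3.11.15).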

Additional observations from a re-analysis of the deposited data

Results flagged for a closer look

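In 5 cases a single library stood apart from the other 4 of its group, its gap to the nearest of them exceeding 0.71 of the group's whole range (Dixon's critical value for 5 samples). The check covered 114 groups, those of the genes named by rule. Genes chosen after their values were seen, such as Traf4, were not checked. Chance alone gives such a case in about 1 of 20 groups, so 5 cases are close to what chance gives. No case concerned any of the 10 receptors. Tnfsf4, the OX40 ligand gene, measured 11.53 TPM in WT replicate 3, against 13.84 to 14.68 in the other WT libraries. Tnfaip3 measured 30.92 TPM in Riok2hKO replicate 5, against 27.23 to 28.26. In WT replicate 4, 3 genes were high: Lif at 30.81 TPM (23.14 to 25.26 in the others), Il12rb2 at 19.72 TPM (16.19 to 16.74) and Vps13d at 1.8 TPM (1.24 to 1.4).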

How the results depend on the processing

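The calls of Tnfrsf8, Tnfrsf25, Tnfrsf4 and Cd27 held under all 22 alternatives, with log2 fold changes of 1.28 to 1.43, 0.33 to 0.42, -0.24 to -0.19 and -0.32 to -0.26. Of 220 receptor values under alternatives, 212 kept direction and call, 3 (all Tnfrsf9) came to pass and 5 (all Fas, never called) changed sign. Of 1249 values of the genes named by rule, receptors included, 40 lost and 11 gained a call and 20 changed sign. These counts leave out the genes chosen after their values were seen. Among those, Cyld lost its call under 15 alternatives, Chuk, Nfkbib and Rbck1 under 11 each, Bid under 8 and Traf7 under 4.

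Counts per list moved as follows. Ligands that fell numbered 1 with no filter, with a mean of at least 5 TPM and with the covariate. Other receptors that rose numbered 1 with array weights, and those that fell 0 with a mean of at least 5 TPM. The TRAF list had 1 that fell with no variance trend and 0 under the replicate block. Death domain genes that fell numbered 1 with no filter and with the covariate. NF-kappaB genes that rose numbered 5 with the covariate, and those that fell 1 with no variance trend. With each library left out in turn, ligands that rose numbered 1 to 2 and that fell 1 to 3, other receptors that rose 0 to 1 and that fell 0 to 1, TRAF genes that fell 0 to 3, death domain genes that fell 1 to 3 and NF-kappaB genes that fell 1 to 3; all genes that passed numbered 1199 (without Riok2hKO replicate 4) to 1749. The cause of these moves was not tested.

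The genes whose sign changed did not pass under any alternative. Fas was -0.0305 with the covariate and -0.0251 to 0.0567 with a library left out. Tnfsf14 was -0.00735 with quantile normalization, -0.00556 with array weights and -0.0158 to 0.0311 with a library left out. Tnfsf4 ranged from -0.195 to 0.0178 with a library left out. Gm13212 was -0.00576 with the covariate and -0.0562 to 0.14 with a library left out. With the GC and length trend removed, Sdf4 was -0.0153 and Plekhg5 -0.029. Left-out libraries gave -0.0345 to 0.0839 for Plekhg5 and -0.0204 to 0.149 for Prdm16.

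Replicate numbers are shared by the genotypes, but deviations of same-numbered libraries correlated at only -0.0341 to 0.0679, and 2 of 10 libraries correlated best with their own number, so they were not treated as pairs. With a replicate block 1444 genes passed, against 1770; 2 receptors rose and 2 fell, as without it, and Cd70 came to pass (limma adjusted p = 0.033). Depth is unknown, so counting error near the filter, as for Cd160, Tnfrsf13c, Plekhg5 and Vps13d, could not be given.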
